A study of Mus musculus with 10 samples.

Results

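Mitochondria read their own small genome with a dedicated translation system, and 33 nuclear genes of that system were examined here. They encode mitochondrial aminoacyl-tRNA synthetases, which join each amino acid to its transfer RNA, initiation, elongation, termination and recycling factors, and enzymes that modify mitochondrial transfer RNAs. Members were chosen by name, as probe sets of the array annotated to a single symbol on the list. All 33 had such a probe set, out of 19938 named genes, and all 33 were bright enough to be among the 13870 genes tested.

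RNA from both ventricles of each of 10 mice was hybridised to its own Affymetrix gene array. The 5 tamoxifen-labelled mice carry the title PGC-1a-/-bf/f/MerCre and received tamoxifen at 50 mg/kg per day on 2 days at 2 months of age. The 5 vehicle-labelled mice carry the title PGC-1a-/- and received sunflower seed oil at the same age, and all hearts were taken 1 month later, at 3 months. Per the labels, all 10 mice lacked PGC-1a. The source names give PGC-1a-/-bf/f/MerCre as the genotype of the vehicle-labelled mice too, so that these would also carry floxed PGC-1b and the tamoxifen-inducible Cre, whereas their titles name neither and their genotype label calls PGC-1b unaffected. If the titles hold, genotype and tamoxifen differ together between the groups. Under either reading only the tamoxifen-labelled mice received tamoxifen, so its own effect cannot be told apart from that of losing PGC-1b. No source used here names the promoter that drives MerCre. The 2 coactivators are known for raising genes of mitochondrial respiration, and the design set out to remove PGC-1b from hearts that already had no PGC-1a.

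The probe set of the targeted gene did not follow its label. Ppargc1b, which encodes PGC-1b, read 10.03 ± 0.10 on the log2 scale in the tamoxifen-labelled arrays and 9.76 ± 0.10 in the vehicle-labelled ones (SD, n = 5 each), higher by 0.27 ± 0.061 (SE, limma adjusted p = 0.00518). The sources used here do not place this probe set inside or outside the deleted exons, and outside them it would check nothing, so every direction below rests on the labels. Ppargc1a, labelled as lacking in all 10 mice, read 11.20 ± 0.23 in the tamoxifen-labelled arrays and 10.81 ± 0.14 in the vehicle-labelled arrays. It was higher by 0.39 ± 0.095 (SE, limma adjusted p = 0.00797), with the same limit. The 11 heart muscle markers checked averaged between 12.41 and 14.39 in the tamoxifen-labelled arrays and between 12.57 and 14.34 in the vehicle-labelled arrays. Macrophage markers rose in 13 of 18 genes and fibroblast markers in 10 of 15, and none of either fell. Of all genes tested, 13.7% were called higher and 8.31% lower. The summed linear signal of the macrophage markers was 10300.5 to 12351 in the tamoxifen-labelled arrays and 8689 to 9981 in the vehicle-labelled arrays. For fibroblast markers the sums were 30147 to 33632 in the tamoxifen-labelled arrays and 26848 to 28041 in the vehicle-labelled arrays. Those of the heart muscle markers were also higher without overlap, at 156396 to 160123 in the tamoxifen-labelled arrays and 151033 to 155124 in the vehicle-labelled arrays. RMA signals have no 0, so no marker was read as absent. In bulk ventricle, fewer cells of a type and less RNA per cell cannot be told apart, and the part of these markers in the results below was not tested. Of the tamoxifen-labelled arrays, array 2 was the brightest, at a median of 7.31 where the other 4 had 7.18 to 7.20 and the vehicle-labelled arrays 7.20 to 7.24.

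In mitochondrial translation, messenger RNAs made from mitochondrial DNA are read into core subunits of the respiratory chain and ATP synthase, all other parts of which come from the nucleus. Charged transfer RNAs are carried to the mitochondrial ribosome by elongation factor Tu, and elongation factor G moves the ribosome along. The heart depends on this system because contraction is fuelled mainly by respiration.

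Of the 33 genes, 16 fell in the tamoxifen-labelled arrays, 0 rose and 17 did not pass the test (limma, adjusted p under 0.05 over all 13870 genes). By the same test 22.1% of all genes tested were called, 8.31% lower and 13.7% higher. The median log2 fold change (tamoxifen-labelled minus vehicle-labelled) was -0.15 over the 33 genes and 0.014 over all genes tested. In 14 of the 33 genes all 5 tamoxifen-labelled values lay below all 5 vehicle-labelled values, which was so for 6.15% of all genes tested. The falls were widest in the elongation factors Tufm and Gfm1 and narrow in most synthetases and transfer RNA modifying enzymes. The estimated change ran from -0.78 in Tufm to 0.090 in Trit1, the only gene of the 33 with an estimate above 0, and 44.8% of all genes tested had one below 0. Across the 33 genes the log2 fold change and the mean log2 signal had a Spearman rho of -0.32, given as a description, since all points share the same 10 arrays.

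**Figure D1:**
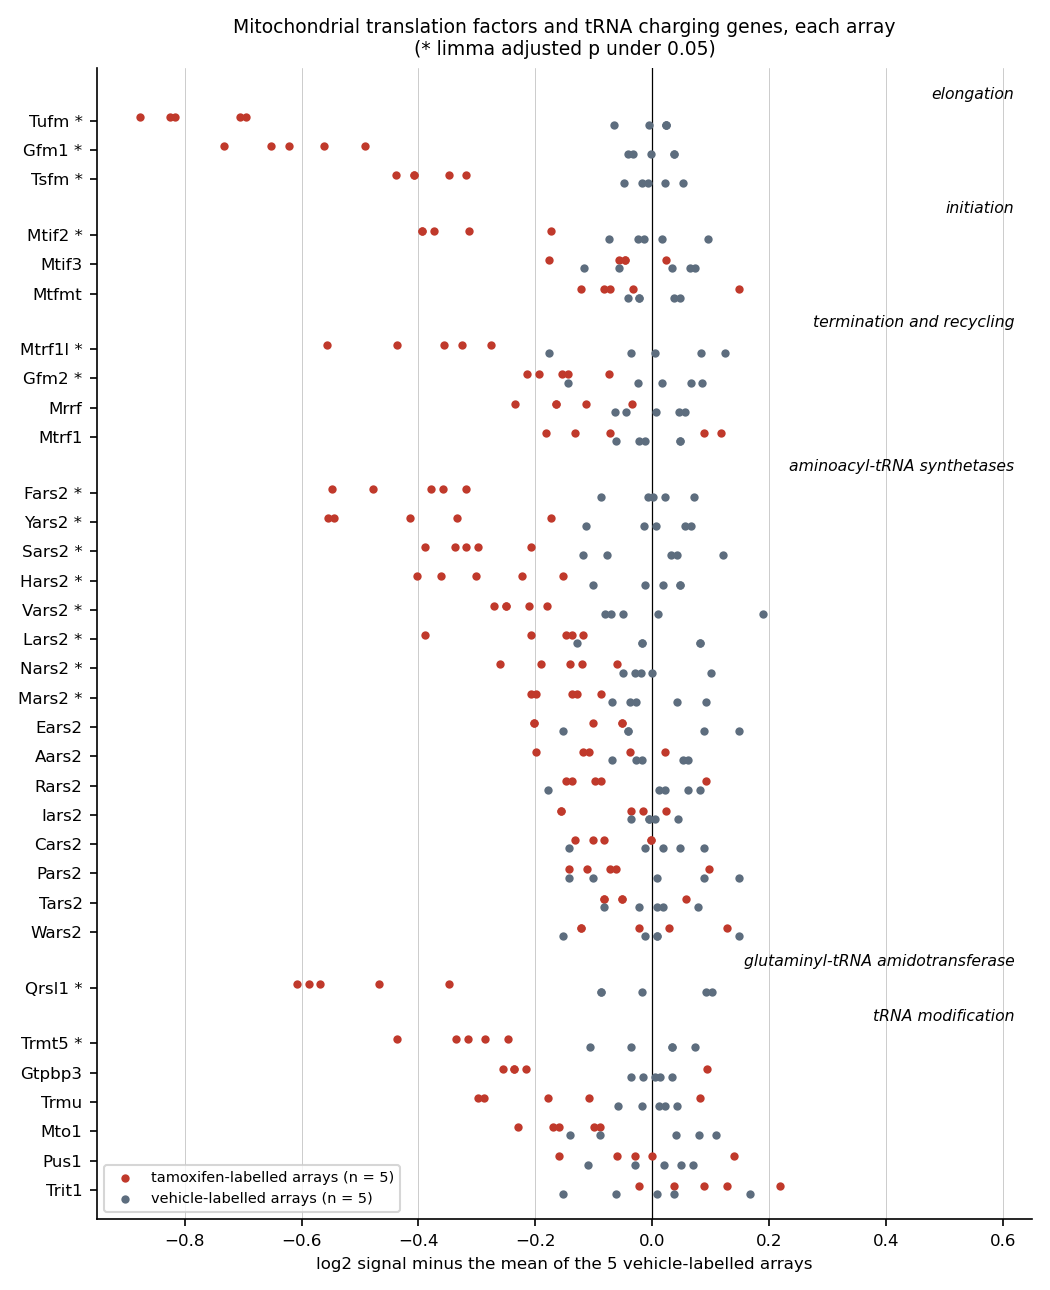
Each point is the log2 signal of 1 array minus the mean of the 5 vehicle-labelled arrays, with tamoxifen-labelled arrays drawn above vehicle-labelled ones in each row and genes grouped by role. The 3 elongation factors, Qrsl1, Mtif2, Mtrf1l, Trmt5 and 7 synthetases have groups that do not overlap, and the values of Wars2, Pars2, Pus1 and Mtrf1 are mixed.

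The tamoxifen-labelled arrays did not all lie equally low. The median over the 33 genes of the difference from the vehicle-labelled mean was -0.14, -0.074, -0.19, -0.16 and -0.22 in tamoxifen-labelled arrays 1 to 5. In the vehicle-labelled arrays 1 to 5 it was -0.008, 0.022, 0.032, -0.064 and 0.004. The tamoxifen-labelled array 2 lay nearest to the vehicle-labelled arrays in these genes, with 20 of 33 below the vehicle-labelled mean, against 30 to 33 in the other 4 arrays of its group. In that array 22.2% of all genes tested were below their vehicle-labelled mean. Without it 19 of the 33 genes fell, 0 rose, and of all genes tested 1646 were lower and 1626 higher, against 1153 lower and 1906 higher with all 10 arrays.

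The bases just before a start of the member genes were searched for core motifs of transcription factors known to act on mitochondrial genes. Whether such factors had a part in the changes was not tested. The letters were GCGCA and, after any 1 base, GCGC for NRF1, CCGGAAG for ETS factors such as GABPA, AAGGTCA for ERR receptors and AANATGGC for YY1, on both strands, in the 250 bases before the start (RefSeq, GRCm38.p6). No printed matches overlap one another. Of the 33 genes, 30 had a window, with 32 windows in all. The start used is the one the promoter table gives, which in 7 of the 32 windows is the outer end of the annotated gene and in 25 lies inside it, so that those windows cover annotated gene sequence in whole or in part. The start of Gfm1 is that outer end, whereas those of Trmt5, Mtif2 and Mtrf1l lie 264, 1045 and 1072 bases inside the gene. The 4 genes shown are those with the smallest p that held a match: the elongation factor gene Gfm1, the transfer RNA methyltransferase gene Trmt5, the initiation factor gene Mtif2 and the release factor gene Mtrf1l. Gfm1 is printed whole (chr3:67429865-67430114, + strand) and the others as 30 bases around each match. Their positions are chr12:73286806-73286835 and chr12:73286777-73286806 for Trmt5 (- strand), chr11:29526367-29526396 for Mtif2 (+ strand) and chr10:5824131-5824160 for Mtrf1l (- strand). Each runs 5′ to 3′ along the gene, with the match in capitals.
Gfm1, ERR match: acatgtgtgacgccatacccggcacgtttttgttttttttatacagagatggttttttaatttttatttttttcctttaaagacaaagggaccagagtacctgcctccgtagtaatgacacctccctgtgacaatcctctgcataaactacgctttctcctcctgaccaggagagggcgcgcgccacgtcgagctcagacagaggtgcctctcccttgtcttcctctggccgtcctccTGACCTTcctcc
Trmt5, ETS match: cgggcttggccCTTCCGGgctctcgtagca
Trmt5, ETS match: aaatcgcgggcCCGGAAGagaggtgcgagt
Mtif2, ETS match: gaattccatggggaagctgCTTCCGGcggt
Mtrf1l, ERR match: ctcgctatctcAAGGTCAcgcctaggcagc

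Counted from the start in the promoter table, the ERR letters in Gfm1 lie 12 to 6 bases before it on the opposite strand, and those of Mtrf1l lie 206 to 200 bases before it on the gene's strand. The ETS letters stand 11 to 5 bases before the start in Mtif2, on the opposite strand. In Trmt5 they stand at 113 to 107 bases on the opposite strand and at 84 to 78 bases on the gene's strand. At least 1 of the 4 motifs was found in 7 of 15 windows of genes that fell and in 1 of 17 windows, from 15 genes, that were not called. The shares were 22.9% of 13947 windows of genes tested and 26.4% of 1123 windows of genes called lower. Window placement differed too: starts lay up to 1072 bases inside the gene among genes that fell and up to 4731 (Mto1) among those not called. Its part in these counts was not tested. By motif, the windows of the 33 genes held ETS letters in 5 of 32, ERR letters in 2, NRF1 letters in 1 and YY1 letters in 0, and the shares among windows of genes tested were 11.7%, 2.92%, 7.06% and 3.94%. Tufm, Qrsl1, Tsfm and Fars2, with smaller p than the genes shown other than Gfm1, held none of these letters in their windows. A match is a stretch of letters and not a shown binding site, and a window without a match says only that these letters are not in it.

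All 3 elongation factors fell, and in each the groups were far apart. Tufm encodes mitochondrial elongation factor Tu, which brings charged transfer RNAs to the ribosome. Its brighter probe set (10578984) read 9.95, 10.06, 10.07, 9.94 and 9.89 in tamoxifen-labelled arrays 1 to 5, against 10.76, 10.79, 10.79, 10.70 and 10.79 in vehicle-labelled arrays 1 to 5. It fell by 0.78 ± 0.050 (log2, SE), or 1.72-fold, with a limma adjusted p of 1.27e-08. The gap between the groups was wider than the whole range within either, which was 0.18 in the tamoxifen-labelled arrays and 0.09 in the vehicle-labelled arrays. A second Tufm probe set (10557420) read 9.58 to 9.76 in the tamoxifen-labelled arrays and 10.39 to 10.49 in the vehicle-labelled arrays, a difference of -0.77 ± 0.052. Signal from any near-identical copy of the gene elsewhere in the genome was not separated here.

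Gfm1 encodes mitochondrial elongation factor G1, which moves the ribosome by a codon at a time. It read 9.87, 10.03, 9.90, 9.96 and 9.79 in the tamoxifen-labelled arrays and 10.49, 10.56, 10.56, 10.52 and 10.48 in the vehicle-labelled arrays, a fall of 0.61 ± 0.052, or 1.53-fold (adjusted p = 2.87e-07). Tsfm encodes elongation factor Ts, which reloads factor Tu with GTP. It read 9.08, 9.08, 9.05, 9.14 and 9.17 in the tamoxifen-labelled arrays against 9.48, 9.51, 9.54, 9.44 and 9.47 in the vehicle-labelled arrays. The fall was 0.38 ± 0.046 (adjusted p = 1.39e-05), with a spread of at most 0.12 among the arrays of either group. The estimate for the exchange factor was smaller than that of its partner Tufm, a difference that was not tested.

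**Figure D2:**
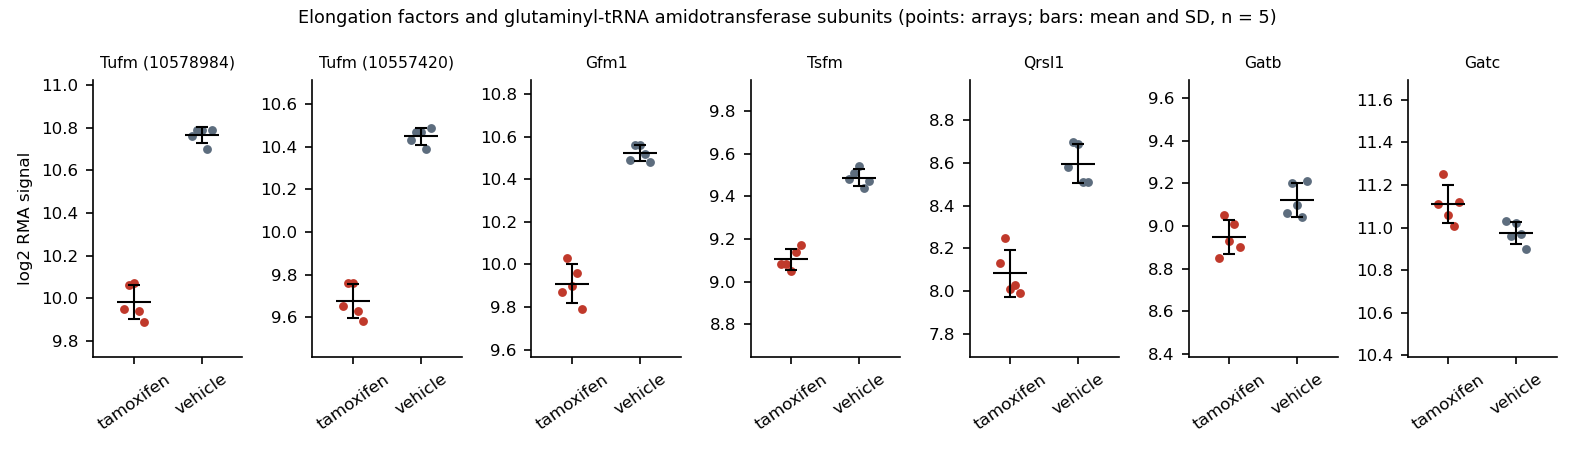
Log2 RMA signals of the elongation factor genes (Tufm with both probe sets, Gfm1, Tsfm) and of the glutaminyl-tRNA amidotransferase subunit genes (Qrsl1, Gatb, Gatc). Points are arrays, with tamoxifen-labelled to the left of vehicle-labelled, and bars are the mean and SD of 5 arrays. Every panel spans the same log2 range, so that the fall of Tufm by 0.78 can be set beside the change of 0.13 in Gatc.

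Of the initiation genes only Mtif2 fell. Mtif2 encodes initiation factor 2, which places the initiator transfer RNA on the ribosome. It read 8.80, 8.94, 8.72, 8.74 and 8.72 in the tamoxifen-labelled arrays and 9.09, 9.13, 9.21, 9.04 and 9.10 in the vehicle-labelled arrays, with no overlap, and fell by 0.33 ± 0.055 (adjusted p = 0.000369). Mtif3, another initiation factor gene, read 8.64, 8.71, 8.63, 8.64 and 8.51 in the tamoxifen-labelled arrays and 8.72, 8.63, 8.75, 8.57 and 8.76 in the vehicle-labelled arrays. Mtfmt encodes the enzyme that formylates the initiator methionyl-tRNA. Its values were 8.66, 8.84, 8.61, 8.57 and 8.62 in the tamoxifen-labelled arrays, against 8.73, 8.67, 8.74, 8.65 and 8.67 in the vehicle-labelled arrays. In both genes the groups overlap. The 95% intervals of the change were -0.17 to 0.055 for Mtif3 (adjusted p = 0.474) and -0.15 to 0.084 for Mtfmt (adjusted p = 0.733).

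Termination and recycling split by gene. Mtrf1l encodes the release factor that reads the stop codons of mitochondrial messages, as shown in human cells. Its values were 7.33, 7.61, 7.56, 7.45 and 7.53 in the tamoxifen-labelled arrays and 8.01, 7.97, 7.85, 7.71 and 7.89 in the vehicle-labelled arrays, without overlap. It fell by 0.39 ± 0.066 (adjusted p = 0.000422). Its relative Mtrf1 read 7.09, 7.39, 7.14, 7.36 and 7.20 in the tamoxifen-labelled arrays against 7.32, 7.26, 7.32, 7.25 and 7.21 in the vehicle-labelled arrays, an overlap throughout (-0.036 ± 0.061, adjusted p = 0.730). Mrrf and Gfm2, whose proteins split the ribosome after termination, had estimates of -0.14 ± 0.051 and -0.16 ± 0.053. Gfm2 read 9.07, 9.15, 9.03, 9.08 and 9.01 in the tamoxifen-labelled arrays and 9.20, 9.31, 9.24, 9.08 and 9.29 in the vehicle-labelled arrays. Vehicle-labelled array 4 alone of its group lay among the tamoxifen-labelled values. Gfm2 was called lower (adjusted p = 0.0465), but not without tamoxifen-labelled array 1, 3, 4 or 5 or vehicle-labelled array 1, 2, 3 or 5, where the adjusted p was 0.0684 to 0.117 (0.00266 to 0.117 over all alternatives). Mrrf read 11.54, 11.62, 11.49, 11.49 and 11.42 in the tamoxifen-labelled arrays and 11.70, 11.71, 11.66, 11.59 and 11.61 in the vehicle-labelled arrays, overlapping only through tamoxifen-labelled array 2 and vehicle-labelled arrays 4 and 5. It was not called (adjusted p = 0.0552), but 8 of the 19 alternatives called it lower, among them leaving out tamoxifen-labelled array 2 (0.0149) or vehicle-labelled array 4 (0.0484). The adjusted p of Mrrf over all alternatives ran from 0.00656 to 0.134. These 2 recycling genes had nearly equal estimates on either side of the threshold.

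Of the 16 synthetase genes 8 fell and 8 were not called, and all 16 estimates were below 0. Of all genes tested, 8.31% were called lower and 44.8% had an estimate below 0. The median log2 fold change of the 16 synthetase genes was -0.14. The deepest fall was that of Fars2, the phenylalanyl-tRNA synthetase gene, which read 8.55, 8.61, 8.57, 8.45 and 8.38 in the tamoxifen-labelled arrays and 8.93, 8.95, 8.92, 8.84 and 9.0 in the vehicle-labelled arrays. It fell by 0.42 ± 0.054, or 1.33-fold (adjusted p = 3.62e-05). The tyrosyl-tRNA synthetase gene Yars2 read 9.29, 9.53, 9.37, 9.15 and 9.16 in the tamoxifen-labelled arrays and 9.77, 9.69, 9.76, 9.59 and 9.71 in the vehicle-labelled arrays, a fall of 0.40 ± 0.069 (adjusted p = 0.000477). Tamoxifen-labelled array 2 was the highest of its group in both genes and still below every vehicle-labelled array. Sars2, for serine, read 8.20, 8.31, 8.22, 8.18 and 8.13 in the tamoxifen-labelled arrays against 8.40, 8.56, 8.55, 8.64 and 8.44 in the vehicle-labelled arrays (-0.31 ± 0.056, adjusted p = 0.000755). Hars2, for histidine, read 8.17, 8.32, 8.25, 8.07 and 8.11 in the tamoxifen-labelled arrays and 8.46, 8.52, 8.52, 8.37 and 8.49 in the vehicle-labelled arrays (-0.29 ± 0.056, adjusted p = 0.00150). In both of these the groups did not overlap either.

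The other 4 synthetase genes that fell had smaller changes. Vars2, for valine, fell by 0.23 ± 0.056 (adjusted p = 0.00683), with 8.08 to 8.17 in the tamoxifen-labelled arrays and 8.27 to 8.54 in the vehicle-labelled arrays. Lars2, for leucine, fell by 0.20 ± 0.061 (adjusted p = 0.0268), Nars2, for asparagine, by 0.15 ± 0.051 (adjusted p = 0.0416) and Mars2, for methionine, by 0.15 ± 0.049 (adjusted p = 0.0356). These 3 calls did not hold when certain single arrays were left out. Lars2 lost its call without tamoxifen-labelled array 5 or vehicle-labelled array 3 or 5 (adjusted p = 0.0674 to 0.0728, range 0.0154 to 0.0728 over all alternatives). Nars2 lost it without tamoxifen-labelled array 3, 4 or 5 or vehicle-labelled array 1, 2, 3 or 5 (0.0602 to 0.110, range 0.00662 to 0.110 over all alternatives). Mars2 lost it without tamoxifen-labelled array 1, 3, 4 or 5 or vehicle-labelled array 3, 4 or 5 (0.0579 to 0.0842, range 0.0153 to 0.0842 over all alternatives). The 8 synthetase genes not called were Ears2 (-0.12), Aars2 (-0.088), Rars2 (-0.076), Iars2 (-0.068), Cars2 (-0.064), Pars2 (-0.058), Tars2 (-0.042) and Wars2 (-0.022), for glutamate, alanine, arginine, isoleucine, cysteine, proline, threonine and tryptophan. In all 8 the groups overlap. The lower ends of their 95% intervals lie between -0.25 and -0.15, so falls as wide as those of Fars2 and Yars2 lie outside them.

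Glutaminyl-tRNA has no synthetase of its own in mammalian mitochondria. Ears2 loads glutamate on that transfer RNA, and an amidotransferase of 3 subunits, made from Qrsl1, Gatb and Gatc, turns it into glutamine. Qrsl1 read 8.13, 8.25, 8.01, 8.03 and 7.99 in the tamoxifen-labelled arrays and 8.58, 8.70, 8.69, 8.51 and 8.51 in the vehicle-labelled arrays, with no overlap. It fell by 0.52 ± 0.061, or 1.43-fold (adjusted p = 1.30e-05), and ranked after Tufm and Gfm1 among the 33 estimates. The partner subunits, named for their role after their values were seen, did not move alike. Gatb read 8.85, 9.05, 8.93, 9.01 and 8.90 in the tamoxifen-labelled arrays and 9.06, 9.20, 9.10, 9.04 and 9.21 in the vehicle-labelled arrays (-0.17 ± 0.055, 95% interval -0.29 to -0.058, adjusted p = 0.0320). Gatb lost its call without tamoxifen-labelled array 1, 3 or 5 or vehicle-labelled array 2, 3 or 5 (adjusted p = 0.0536 to 0.0898, range 0.00384 to 0.0898 over all alternatives). Gatc read 11.11, 11.25, 11.06, 11.01 and 11.12 in the tamoxifen-labelled arrays and 11.03, 10.96, 11.02, 10.97 and 10.90 in the vehicle-labelled arrays (0.13 ± 0.053, 95% interval 0.022 to 0.25, adjusted p = 0.0833). The interval of Qrsl1, -0.65 to -0.39, overlaps neither of these, and the differences themselves were not tested.

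Of 6 genes of transfer RNA modification, Trmt5 fell and the others did not pass, where 8.31% of all genes tested were called lower. Trmt5 encodes a methyltransferase that acts on the base beside the anticodon. Its values were 9.27, 9.34, 9.25, 9.30 and 9.15 in the tamoxifen-labelled arrays and 9.62, 9.66, 9.55, 9.62 and 9.48 in the vehicle-labelled arrays, without overlap, a fall of 0.32 ± 0.052 (adjusted p = 0.000292). Gtpbp3 and Mto1 encode partners that add a taurine-containing group to the first anticodon base, and Trmu encodes the enzyme that adds sulfur to it. Gtpbp3 read 7.72, 8.05, 7.70, 7.72 and 7.74 in the tamoxifen-labelled arrays and 7.92, 7.99, 7.94, 7.97 and 7.96 in the vehicle-labelled arrays. Of its tamoxifen-labelled values 4 lie below all vehicle-labelled ones and that of array 2 lies above them. Trmu read 7.10, 7.36, 6.98, 6.99 and 7.17 in the tamoxifen-labelled arrays and 7.22, 7.29, 7.30, 7.32 and 7.26 in the vehicle-labelled arrays, with array 2 again on the other side. Mto1 read 8.70, 8.71, 8.64, 8.63 and 8.57 in the tamoxifen-labelled arrays and 8.88, 8.91, 8.84, 8.66 and 8.71 in the vehicle-labelled arrays, where arrays 4 and 5 are as low as the tamoxifen-labelled ones. With all arrays these 3 genes had estimates of -0.17, -0.16 and -0.15 and adjusted p of 0.0664, 0.0995 and 0.0718. Without tamoxifen-labelled array 2 Gtpbp3 and Trmu were called, at -0.24 and -0.22 (adjusted p = 0.000619 and 0.00635), and without vehicle-labelled array 4 Mto1 was called, at -0.185 (adjusted p = 0.0279). Over all alternatives their adjusted p ran from 0.000619 to 0.143 for Gtpbp3, 0.00635 to 0.229 for Trmu and 0.0107 to 0.172 for Mto1, and 6, 4 and 5 alternatives called them lower in that order. Pus1, a pseudouridine synthase gene (-0.022 ± 0.059), and Trit1, which encodes an isopentenyltransferase (0.090 ± 0.063), had overlapping groups.

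Synthetases of the cytosol were set beside those of mitochondria, to see whether the same chemistry moved alike in both compartments. Of 16 cytosolic synthetase genes tested, 6 rose and 0 fell, where 13.7% of all genes tested were higher, with a median log2 fold change of 0.145, and none was called lower under any of the 19 alternatives. They included Qars (0.26 ± 0.051, adjusted p = 0.00159), Yars (0.25 ± 0.053, adjusted p = 0.00265), Sars (0.24 ± 0.056, adjusted p = 0.00585) and Cars (0.20 ± 0.048, adjusted p = 0.00807). Yars read 9.23, 9.28, 9.18, 9.18 and 9.19 in the tamoxifen-labelled arrays and 8.99, 9.04, 8.86, 8.86 and 9.05 in the vehicle-labelled arrays. Its groups do not overlap, and they lie in the opposite order to those of Yars2. The further 2 that rose were Rars (0.22) and Tars (0.22). Tars lost its call without tamoxifen-labelled array 2 or 5 or vehicle-labelled array 1 or 4 (adjusted p = 0.0575 to 0.0804, range 0.00913 to 0.0804 over all alternatives). Of 13 cytosolic initiation, elongation and release factor genes, 5 rose and 0 fell, among them Eif2s2 (0.42 ± 0.054) and Eef1a1 (0.35 ± 0.059). Over all alternatives the estimate ran from 0.26 to 0.45 for Eif2s2 and from 0.32 to 0.38 for Eef1a1.

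In each of 18 pairs of a mitochondrial gene and its cytosolic counterpart, the difference between the paired log2 signals was taken within each array and compared between the groups. It was lower in the tamoxifen-labelled arrays in all 18 pairs, and 16 passed a two-sided exact permutation test (adjusted p of 0.0102 to 0.0357, Benjamini-Hochberg over the 18 pairs). In 14 of the pairs the within-array differences of the groups did not overlap, each with an exact p of 0.00794 by permutation, the smallest that 5 against 5 arrays can give. The 18 pairs share genes, since Fars2 was paired with both Farsa and Farsb, and Eprs with both Ears2 and Pars2. No share over other gene pairs was computed to set beside these counts. The widest difference of changes was that of Tufm and Eef1a2, the elongation factor 1A gene of muscle, at -0.83 ± 0.051 (SE). Gfm1 and Eef2, the cytosolic translocation factor gene, differed by -0.74 ± 0.039, Yars2 and Yars by -0.66 ± 0.073 and Sars2 and Sars by -0.55 ± 0.047. Rars2, Cars2 and Tars2, which were not called on their own, differed from Rars, Cars and Tars by -0.29 ± 0.048, -0.26 ± 0.047 and -0.26 ± 0.058, and each of these 3 cytosolic genes rose. Pars2 and Wars2 could not be told from their counterparts Eprs and Wars (-0.058 ± 0.088 with adjusted p = 0.580, and -0.040 ± 0.074 with adjusted p = 0.595, both by the exact permutation test). Iars2 and Iars lost the call without tamoxifen-labelled array 1, 2, 3 or 5 or vehicle-labelled array 2, 3, 4 or 5 (adjusted exact permutation p = 0.0536 to 0.0714). Ears2 and Eprs lost it after quantile normalization (adjusted p = 0.0714 by the same permutation test). Gars and Kars, whose enzymes serve both compartments, had estimates of 0.082 ± 0.058 and 0.016 ± 0.053 with overlapping groups, named here for their role after their values were seen.

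**Figure D3:**
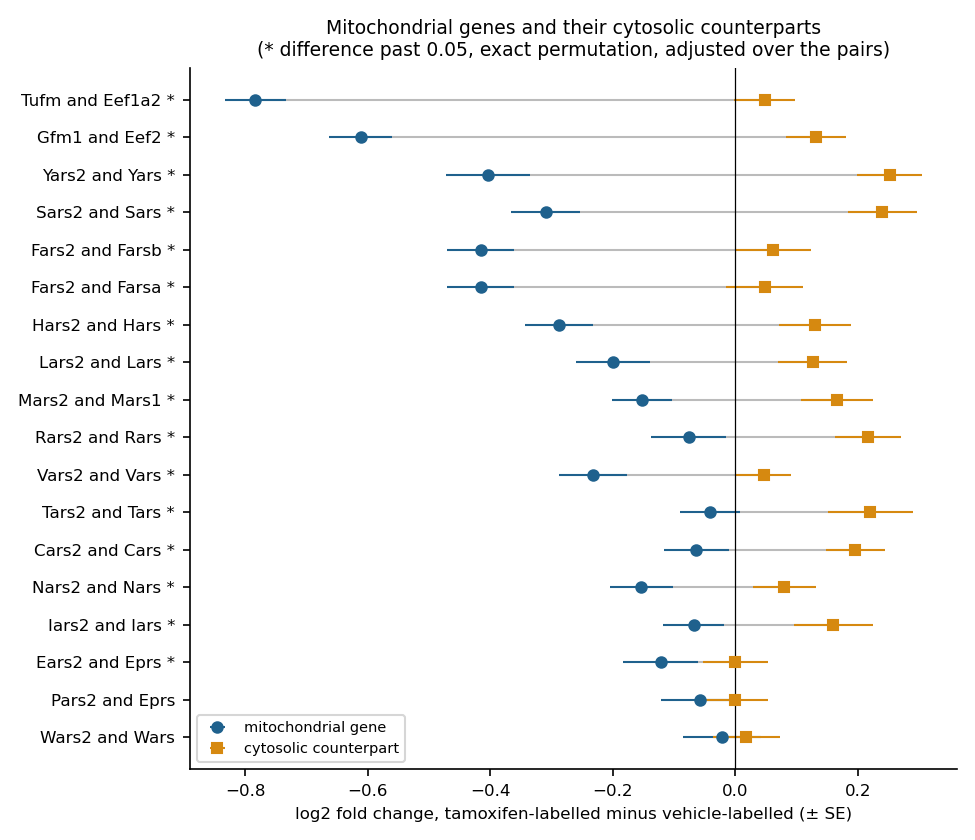
Log2 fold changes (tamoxifen-labelled minus vehicle-labelled, ± SE, 5 arrays per group) of each mitochondrial gene (circles) and its cytosolic counterpart (squares), ordered by the difference between them. An asterisk marks the 16 pairs past the threshold, and the pairs of Pars2 and Wars2 at the bottom did not pass.

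Other genes of the mitochondrial translation machinery were counted beside the 33. Mitochondrial ribosomal protein genes were taken by symbol alone (starting Mrpl or Mrps, and Dap3). Of these 78 genes, 48 fell and 0 rose (median -0.22). Those with the smallest p were Mrpl12 (-0.90 ± 0.054), Mrpl55 (-0.88 ± 0.054), Mrpl18 (-0.74 ± 0.053) and Mrps9 (-0.61 ± 0.046). Of 52 further genes of transfer RNA processing, ribosome assembly, messenger RNA handling and membrane insertion, 18 fell and 1 rose (median -0.12), against 8.31% lower and 13.7% higher over all genes tested. Lrpprc, which stabilises mitochondrial messenger RNAs, fell by 0.82 ± 0.051. Taco1, known as an activator of cytochrome oxidase subunit translation, fell by 0.66 ± 0.061, the ribosomal RNA methyltransferase gene Mrm3 by 0.64 ± 0.064 and the ribosome-associated Ptcd3 by 0.52 ± 0.051. The gene that rose was Elac2, whose enzyme trims the ends of transfer RNAs (0.18 ± 0.056, adjusted p = 0.0325), and it lost its call without tamoxifen-labelled array 1 or 5 or vehicle-labelled array 1, 4 or 5 (adjusted p = 0.0554 to 0.0754, range 0.00791 to 0.0754 over all alternatives). Without vehicle-labelled array 5 the count of further genes called was 12. Mrpl58, which fell, was counted in both lists.

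**Figure D4:**
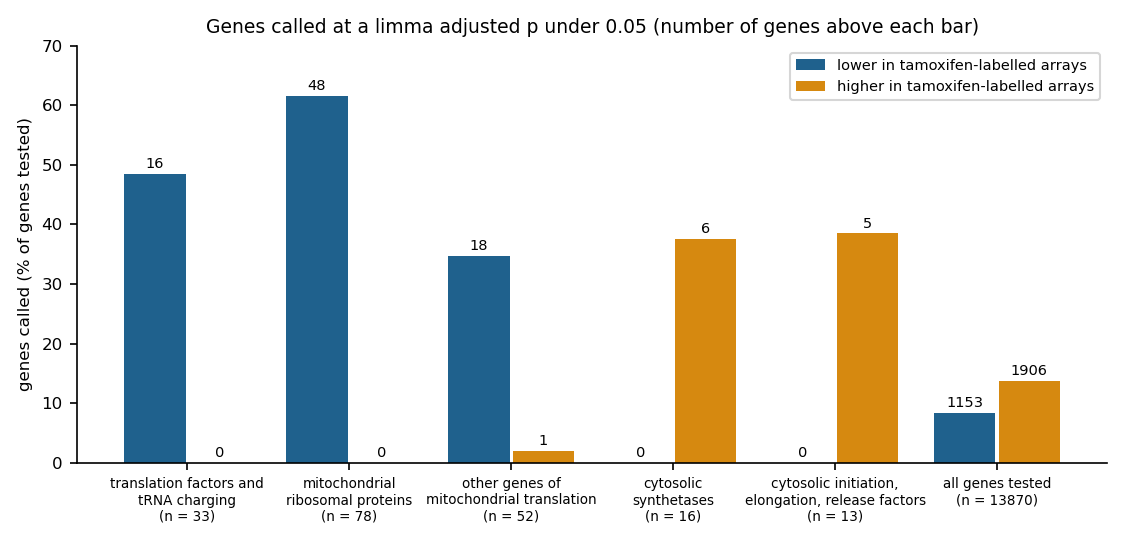
Share of the genes tested in each list, in percent, that were called lower or higher in the tamoxifen-labelled arrays (limma adjusted p under 0.05), with the number of genes above each bar. The 3 mitochondrial lists are called mostly lower and the 2 cytosolic lists only higher, and all genes tested stand at the right with 8.31% lower and 13.7% higher.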

How the data were processed

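Expression was measured in 10 mouse ventricle samples with 1 Affymetrix array each, and groups were taken from the titles. The deposited values are log2 signals. The submitters' processing notes name RMA and, at version 1.1, Affymetrix Expression Console. RMA corrects background, sets all arrays to 1 distribution by quantiles and then summarises probes, and no detection call is kept. The median of the deposited values still differed between arrays, at 7.31 in tamoxifen-labelled array 2 and 7.18 to 7.24 in the others. Nothing in the labels says whether the mice came from separate litters or which arrays were processed together.

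The platform annotation gave 1 symbol to 21789 of 35556 probe sets, several to 1621 and none to 12146, and only those with 1 were used. A gene was represented by its probe set with the highest mean. Probe sets with a mean under the 30% quantile of these (6.55) were left out, which removed 6068 genes, none of them among the 33, and left 13870 genes. They were tested with limma 3.58.1 (R 4.3.3; lmFit, eBayes) on the 5 against 5 arrays with Benjamini-Hochberg adjustment over all 13870 genes and a threshold of 0.05. Errors are limma SE unless given as SD, except for the differences of pairs, and intervals are at 95%. The SE of a pair difference came from the variances of the within-array differences in each group, without limma. The difference within mitochondrial and cytosolic pairs was tested with an exact two-sided permutation test. Of 19 pairs listed, 18 had both genes. The fit was tested on simulated data.

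The 33 genes and all gene lists were chosen with earlier results of these data known. Values in every array were given for up to 4 genes with the smallest p in each role. Of other lists, up to 4 genes by the same order and the counterparts of named genes were named, mostly by their estimates alone. Genes named otherwise are marked as such. Listed genes without a probe set of their own were not analysed here. The alternatives were no filter and a 50% filter on dim probe sets, median centring, a further quantile normalization, array weights, a trended and robust prior, averaging where a gene had several probe sets, keeping probe sets shared by genes, the replicate number as a block, and leaving out each array. Further marker lists of endothelial and skeletal muscle cells were measured: 1 of 13 endothelial and 3 of 6 skeletal muscle genes tested were higher and 0 lower, and of 11 heart muscle genes 2 were higher and 1 lower. The shares over all genes tested were 13.7% higher and 8.31% lower. Python 3.11.15 with matplotlib 3.10.9 was used for plots and promoter searches.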

Additional observations from a re-analysis of the deposited data

Results flagged for a closer look

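Among the 66 groups of 5 log2 signals of the 33 genes, and in the median signal per array, a value was picked out when its gap to the nearest of its group exceeded 0.71 of the group's whole range, which chance alone does in about 1 in 20 groups. Rars2, for arginine, read 9.34 in tamoxifen-labelled array 2, against 9.10 to 9.16 in the other 4 (ratio 0.75). In the same gene vehicle-labelled array 4 read 9.07, against 9.26 to 9.33 in the others (ratio 0.731). Tars2, for threonine, read 9.32 in tamoxifen-labelled array 2, against 9.18 to 9.21 in the others (ratio 0.786). Gtpbp3, for transfer RNA modification, read 8.05 in tamoxifen-labelled array 2, against 7.70 to 7.74 in the others (ratio 0.886). The median signal of all probe sets in tamoxifen-labelled array 2 was 7.31, against 7.18 to 7.20 in the others of its group (ratio 0.846). That array thus accounts for 4 of these 5 values, and the reason was not tested.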

How the results depend on the processing

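Of the 16 genes that fell, 12 (Tufm, Gfm1, Tsfm, Mtif2, Mtrf1l, Qrsl1, Trmt5, Fars2, Yars2, Sars2, Hars2 and Vars2) stayed called and lower under all 19 alternatives. Gfm2, Lars2, Mars2 and Nars2 did not, and 6 uncalled genes (Ears2, Rars2, Mrrf, Trmu, Mto1 and Gtpbp3) were called lower under at least 1. The count of the 33 genes called ran from 12 to 22, and from 12 to 19 when 1 array was left out. Leaving out 1 array gave 2527 to 3272 of all genes, 5 to 7 cytosolic synthetases, 4 to 6 cytosolic factors, 15 to 16 pairs and 12 to 27 further mitochondrial translation genes, the 12 without vehicle-labelled array 5 and the 27 without tamoxifen-labelled array 2. The cytosolic factors numbered 8 rather than 5 with median centring, with the 50% filter and with the trended prior, and the further mitochondrial genes 29 rather than 19 with quantile normalization. Estimates near 0 changed sign with array weights in Farsa (-0.0027), Farsb (-9.85e-05), Kars (-0.0037) and Wars (-0.023), and with quantile normalization in Kars (-0.013) and Wars (-0.0080). Leaving out 1 array moved Kars between -0.0065 and 0.040, Wars between -0.0090 and 0.0485, Wars2 between -0.060 and 0.015, Mtrf1 between -0.0745 and 5e-04 and Pus1 between -0.0625 and 0.0125. The cause of these shifts was not tested. Of the calls of all genes, 62.3% were higher with all arrays, 51.7% with array weights and 49.7% without tamoxifen-labelled array 2.

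Same-numbered arrays of the groups deviated together with correlations of 0.175, 0.203, 0.0981, 0.0390 and 0.174, all positive, and 3 of 5 correlated best with their own number. Whether same-numbered arrays shared handling was not tested. The labels do not say that the numbers mark pairs, and the main fit did not use them as pairs. With the replicate number as a block 19 of the 33 genes, 19 further genes, 8 cytosolic synthetases, 7 cytosolic factors and 3532 of all genes were called. For the pairs the block left 0 past the threshold, where the smallest p it allows is 0.0625 (adjusted 0.075 by the exact permutation test). With 5 arrays per group and RMA values that carry no detection call, changes of about 0.1 in log2 could not be told from 0 for most of these genes, and an uncalled gene is not shown to be the same in both groups.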
